A study of Mus musculus with 20 samples.

Results

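Choline acetyltransferase and 9 acetylcholine receptor subunits were followed through trigeminal ganglia (TG) and nucleus accumbens (NAc) of mice given morphine or vehicle. The 10 genes were taken by name: Chat, the muscarinic receptors Chrm1, Chrm2, Chrm3 and Chrm4, and the nicotinic subunits Chrna3, Chrna4, Chrna6, Chrnb2 and Chrnb4. All 10 were found among the 32941 named genes of the table.

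The 20 RNA-seq libraries came from 10 male C57BL/6J mice aged 9 to 12 weeks, and each mouse gave both tissues 24 h after its last injection. Of these mice, 5 received morphine, under the label OIH, which in this field stands for opioid-induced hyperalgesia, and 5 received vehicle. The dose, the number of injections and any pooling of ganglia were not given in the sources used here. Each of the 4 groups therefore held 5 libraries. The comparisons ask which tissue carries which cholinergic genes, and whether morphine changed them in either tissue.

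Acetylcholine is made from choline and acetyl-CoA by choline acetyltransferase. It acts on muscarinic receptors, which signal through G proteins, and on nicotinic receptors, which are pentameric cation channels built from alpha and beta subunits. In the accumbens it is released mainly by sparse, tonically active cholinergic interneurons that act on medium spiny neurons and on the axons of dopamine neurons. In sensory ganglia, nicotinic and muscarinic receptors sit on primary afferent neurons, and Chrna6 has been linked to pain sensitivity in mice.

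Estimated counts summed to between 61285916 and 76110288 in the TG libraries and to between 52402037 and 64357778 in the NAc libraries. Levels are in CPM, that is counts per library size after TMM scaling over all 20 libraries, and intervals are standard deviations over 5 libraries unless a standard error (SE) is named. The 10 sensory neuron markers summed to 5297 to 5824 CPM in vehicle TG and 191 to 267 CPM in vehicle NAc. The 9 medium spiny neuron markers summed to 1484 to 4462 CPM in vehicle NAc and 178 to 202 CPM in vehicle TG, where Tac1, a peptide gene shared with sensory neurons, held 147 CPM. Neither list had a gene at 0 in any group. The tissue labels thus fitted their markers. Markers of neighbouring tissue varied more: the 5 genes of cortex and septum summed to between 58.1 and 872 CPM in NAc libraries, and pituitary genes to between 17.5 and 1428 CPM in TG libraries. In bulk tissue, fewer cells of a type and less RNA per cell cannot be told apart.

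The tissues divided the 10 genes evenly. In vehicle mice 5 were higher in TG (Chrna6, Chrna3, Chrnb4, Chrnb2 and Chrm2) and 5 were higher in NAc (Chat, Chrm1, Chrna4, Chrm4 and Chrm3). All 10 passed an adjusted p of 0.05 in edgeR's quasi-likelihood test, against 67.4% of all features tested, so the count itself lies close to what most genes of these tissues did. The other 5 mice, given morphine, showed the same division, with 10 of 10 called against 68.2% of all features. The sizes ran from a 1.65-fold difference for Chrm2 to a 141-fold difference for Chrna6 in vehicle mice, and from 1.74-fold for Chrnb2 to 281-fold for Chrna6 in morphine mice. Genes called higher in TG made up 32.9% of all features in vehicle mice and genes called lower 34.5%.

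**Figure D1:**
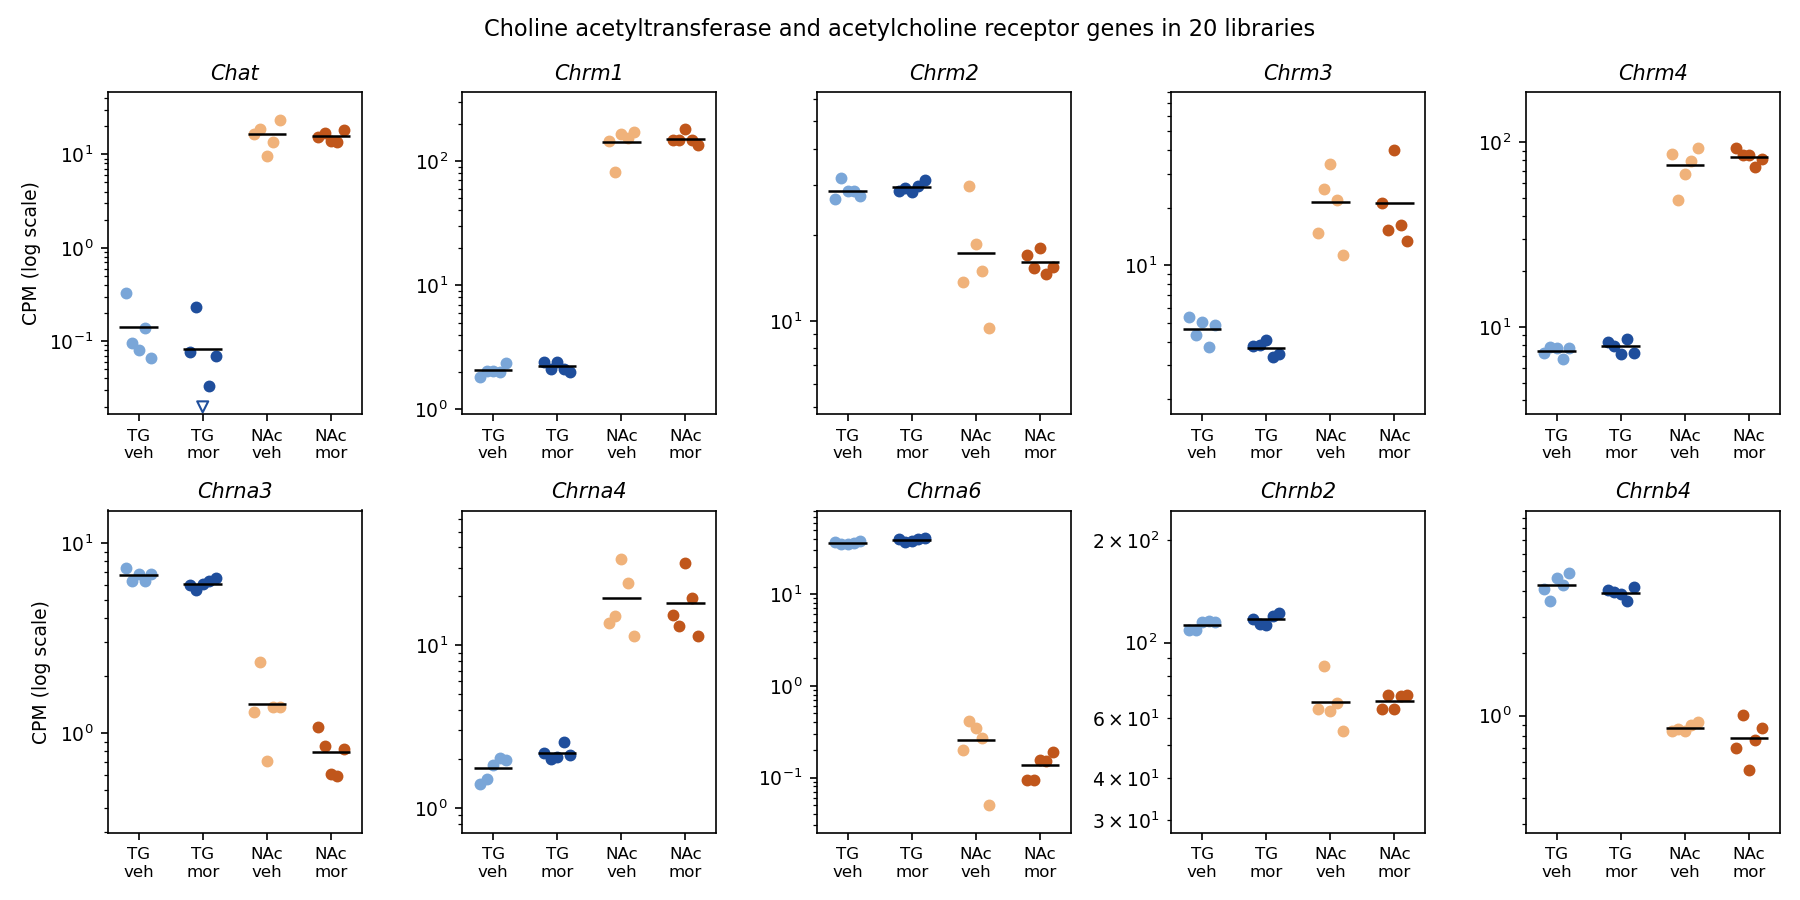
CPM of each gene (log axis) in every library of vehicle (veh) and morphine (mor) mice, in trigeminal ganglia (TG, blue) and nucleus accumbens (NAc, orange); points are libraries in order of replicate number, lines are group means, and the open triangle marks a library with a count of 0. The tissues stand apart for all genes but Chrm2, where the vehicle NAc library at 29.7 CPM lies inside the TG range, while morphine and vehicle overlap in every panel.

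Chat, the enzyme that makes acetylcholine and the defining gene of cholinergic neurons, was a gene of the accumbens. In vehicle NAc it read 16.7, 18.6, 9.60, 13.7 and 23.2 CPM in replicates 1 to 5. In vehicle TG it read 0.329, 0.0952, 0.0808, 0.138 and 0.0653 CPM, which rest on 4 to 21 counts a library and 45 in all. The tissues did not overlap, and the fitted level was 114-fold higher in NAc (log2 difference TG minus NAc -6.83, SE 0.50, edgeR adjusted p = 6.4e-10). The morphine TG libraries held 25 counts in all, and replicate 3 held 0. Chat stood in vehicle TG at 0.865% of its vehicle NAc level. The 9 medium spiny markers stood there at 0.340% to 76.9% of theirs, 4 of them below Chat, Drd1 and Penk among them, and 5 above it, Drd2 and Adora2a among them. Whether the Chat reads of TG came from the ganglion was not tested.

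The Chat gene (gene ID 12647) spans chromosome 14 from 32408203 to 32465909 on GRCm38.p6 and holds within it Slc18a3, the vesicular acetylcholine transporter, from 32462437 to 32464850. This nested arrangement is the cholinergic gene locus. Slc18a3 was 5.29 CPM in vehicle NAc and 0.0472 CPM in vehicle TG, a log2 difference of -6.75 (edgeR adjusted p = 5.8e-09), so both genes of the locus had nearly the same tissue ratio. The genes overlap, and how the estimated counts split reads between them was not tested. Their promoters are shown because the genes lie together and share their tissue. The 250 bases before each start were read from the RefSeq promoter table of GRCm38.p6, which holds 8 of the 10 genes and none for Chrm1 and Chrna6. Chat lies at chr14:32465910-32466159 and Slc18a3 at chr14:32464851-32465100, both on the minus strand and printed 5′ to 3′ along the gene. Capitals mark matches on either strand to the GC box GGGCGG, the CCAAT box CCAAT, the TATA box TATAAA or the E-box CACGTG.
Chat: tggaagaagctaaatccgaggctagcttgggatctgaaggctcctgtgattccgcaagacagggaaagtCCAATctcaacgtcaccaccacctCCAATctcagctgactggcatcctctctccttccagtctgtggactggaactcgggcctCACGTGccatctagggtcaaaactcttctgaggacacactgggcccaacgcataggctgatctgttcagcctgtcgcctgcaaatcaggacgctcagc
Slc18a3: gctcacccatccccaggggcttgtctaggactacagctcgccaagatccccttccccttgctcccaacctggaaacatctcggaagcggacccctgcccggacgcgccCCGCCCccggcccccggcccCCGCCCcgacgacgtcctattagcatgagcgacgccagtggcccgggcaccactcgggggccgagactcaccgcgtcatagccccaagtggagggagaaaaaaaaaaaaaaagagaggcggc

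The Chat window held CCAAT at 181 and 157 bases before the start and CACGTG at 98 bases before it, and no GC box. The Slc18a3 window held the GC box on the other strand, as CCGCCC, at 142 and 122 bases before the start, and neither CCAAT nor CACGTG. No TATAAA was found in either. No match overlapped another. Of 27025 promoter windows of this length, 32.9% hold a GC box, 34.5% CCAAT, 13% TATAAA and 6.05% CACGTG. G and C made up 54.8% of the Chat window and 66.0% of the Slc18a3 window, against a median of 52% over all windows. So the windows of these neighbouring genes shared none of the motifs searched.

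Other genes of acetylcholine synthesis, transport and breakdown did not follow Chat as a group. Of 12 listed genes, Chat included, 11 were tested between tissues in vehicle mice: 5 were higher in TG and 3 in NAc. Of all features, 32.9% were called higher in TG and 34.5% in NAc. The genes special to cholinergic terminals were the NAc set, Chat, Slc18a3 and Slc5a7, the high-affinity choline transporter, at 44.8 CPM against 1.44 CPM. The general choline genes were the TG set: the choline transporters Slc44a1 (189 against 57.0 CPM) and Slc44a2 (52.5 against 8.16 CPM), and Pcyt1a, an enzyme of phosphatidylcholine synthesis (128 against 39.7 CPM). Of the breakdown genes, Bche, butyrylcholinesterase, was higher in TG (47.1 against 6.49 CPM), as was Colq, the collagen tail that anchors acetylcholinesterase at muscle endplates. Chka, choline kinase, was 57.6 CPM in TG and 57.0 CPM in NAc (adjusted p = 0.69). Ache, acetylcholinesterase itself, did not pass in vehicle mice, with 110 CPM in TG against 88.5 CPM in NAc (adjusted p = 0.089). In morphine mice Ache was 110 CPM in TG against 81.5 CPM in NAc. There 6 genes of the list were called higher in TG and 3 in NAc, where 68.2% of all features were called. The list's median log2 difference was 0.32 in vehicle mice and 0.43 in morphine mice, beside -0.06 over all features in either.

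Of the muscarinic receptors taken by name, Chrm1 and Chrm3 couple to Gq. Chrm1 (chromosome 19, 8664005 to 8683606) read 144, 81.6, 164, 154 and 172 CPM in vehicle NAc, and 1.83, 2.04, 2.04, 2.02 and 2.38 CPM in vehicle TG. No NAc library came near the TG range, and the NAc level was 69.5-fold higher (log2 -6.12, SE 0.18, edgeR adjusted p = 1.1e-15). Replicate 2 was the low library of the accumbens. Chrm3 (chromosome 13, 9875486 to 10361062) read 14.8, 25.2, 33.8, 21.8 and 11.3 CPM in vehicle NAc and 5.35, 4.32, 5.08, 3.75 and 4.88 CPM in vehicle TG. It was 4.57-fold higher in NAc (log2 -2.19, SE 0.30, adjusted p = 2.8e-06), without overlap, with far wider spread among NAc libraries.

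The receptors that couple to Gi are Chrm2 and Chrm4, and they went in opposite directions. Chrm4 (chromosome 2, 91922189 to 91929835), known in medium spiny neurons, above all those of the direct pathway, read 86.8, 48.7, 67.2, 78.8 and 93.6 CPM in vehicle NAc. In vehicle TG it read 7.20, 7.81, 7.65, 6.73 and 7.67 CPM, 10.1-fold lower (log2 -3.34, SE 0.14, adjusted p = 1.1e-13). The groups did not overlap. Chrm2 (chromosome 6, 36387991 to 36528638), an autoreceptor of cholinergic terminals, was the muscarinic gene higher in TG. It read 26.6, 31.6, 28.5, 28.5 and 27.3 CPM in vehicle TG and 13.7, 29.7, 18.5, 14.9 and 9.41 CPM in vehicle NAc (log2 0.73, SE 0.19, adjusted p = 0.0029). The NAc library of replicate 2 lay inside the TG range, so these groups overlapped. This call did not survive when curated RefSeq transcripts alone were summed (log2 0.52, adjusted p = 0.0819), where the sum leaves out the predicted transcript that held 90.0% of Chrm2 counts in vehicle TG and 90.1% in vehicle NAc.

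The nicotinic alpha subunits were split between the tissues. Chrna6 (chromosome 8, 27403212 to 27413944) read 36.6, 35.0, 35.3, 36.3 and 37.7 CPM in vehicle TG and 0.201, 0.414, 0.348, 0.271 and 0.050 CPM in vehicle NAc. The coefficient of variation over the TG libraries was 3.03%, and the TG level was 141-fold higher (log2 7.14, SE 0.25, adjusted p = 9.7e-15). In the accumbens the protein is known from axons of midbrain dopamine neurons, whose messenger RNA is made elsewhere. Chrna4 (chromosome 2, 181022311 to 181043579), the alpha subunit of the most common brain nicotinic receptor, was the NAc counterpart. It read 13.7, 15.2, 33.7, 24.2 and 11.3 CPM in vehicle NAc and 1.41, 1.51, 1.84, 2.04 and 1.96 CPM in vehicle TG, with no overlap (11.2-fold, log2 -3.49, SE 0.31, adjusted p = 1.2e-08).

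Chrna3 and Chrnb4, subunits of the classical receptor of autonomic ganglia, were both ganglion genes. Chrna3 read 7.40, 6.34, 6.87, 6.32 and 6.89 CPM in vehicle TG and 1.29, 2.35, 0.714, 1.37 and 1.37 CPM in vehicle NAc. Chrnb4 read 4.08, 3.59, 4.59, 4.26 and 4.88 CPM in vehicle TG and 0.839, 0.863, 0.843, 0.904 and 0.933 CPM in vehicle NAc. Neither gene overlapped between tissues. Their tissue ratios lay close together, 4.76-fold for Chrna3 (log2 2.25, SE 0.22, adjusted p = 4.2e-08) and 4.88-fold for Chrnb4 (log2 2.29, SE 0.14, adjusted p = 2.7e-11). In morphine mice they were 7.71-fold and 5.04-fold.

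These genes are also neighbours on chromosome 9. Chrna3 spans 55010117 to 55026562 and Chrnb4 55028154 to 55048953, with 1591 bases between them. Chrna5, the third gene of the cluster, spans 54980827 to 55011420 and shares 1304 bases with Chrna3. It did not share the pattern: Chrna5 was 0.532 CPM in vehicle TG and 0.796 CPM in vehicle NAc (log2 -0.58, adjusted p = 0.2). The promoters of Chrna3 and Chrnb4 are shown because these neighbours have like tissue ratios in vehicle mice when transcripts are summed. By single transcripts, the log2 difference of Chrnb4 in vehicle mice was 2.03 for the curated transcript and 4.45 for a predicted one. They are the 250 bases before a RefSeq start of each gene, at chr9:55026563-55026812 and chr9:55048545-55048794, on the minus strand, with capitals as above. The Chrnb4 window belongs to a start inside the gene and lies within the span given for it.
Chrna3: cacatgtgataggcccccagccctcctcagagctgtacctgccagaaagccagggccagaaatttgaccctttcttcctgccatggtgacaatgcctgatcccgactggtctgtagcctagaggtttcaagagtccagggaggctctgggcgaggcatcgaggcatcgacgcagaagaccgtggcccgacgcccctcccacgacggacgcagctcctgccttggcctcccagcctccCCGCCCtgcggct
Chrnb4: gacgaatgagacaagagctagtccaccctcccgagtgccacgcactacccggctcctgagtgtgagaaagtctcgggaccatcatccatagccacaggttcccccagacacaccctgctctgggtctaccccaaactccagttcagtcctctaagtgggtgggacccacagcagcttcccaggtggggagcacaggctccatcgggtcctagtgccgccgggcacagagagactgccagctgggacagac

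The Chrna3 window held 1 GC box on the other strand, 13 bases before the start, and the Chrnb4 window held none of the 4 motifs. G and C made up 63.2% and 61.2% of these windows. A similar neighbourhood exists on chromosome 8, where Chrnb3 (27368711 to 27399730) ends 3481 bases before Chrna6. Chrnb3, an accessory subunit known to join alpha6 receptors, was 17.9 CPM in vehicle TG and 0.527 CPM in vehicle NAc (log2 5.09, adjusted p = 2.1e-07). Both genes of that pair were thus higher in the ganglion.

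Chrnb2 (chromosome 3, 89753448 to 89764632), the common beta partner of alpha4 and alpha6, was well measured in both tissues. It read 109, 109, 115, 115 and 115 CPM in vehicle TG and 63.9, 85.7, 62.9, 66.5 and 55.1 CPM in vehicle NAc. The groups did not overlap, and the TG level was 1.69-fold higher (log2 0.76, SE 0.08, adjusted p = 8.1e-08). Without TMM scaling, on library size alone, the median of all features moved from -0.06 to -0.21 in this contrast. The direction and the call of Chrnb2, Chrm2 and the other 8 genes stayed the same under that scaling.

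Of the 12 other acetylcholine receptor genes listed, 10 were tested between tissues in vehicle mice, and 5 were higher in TG and 2 in NAc. Over all features, 32.9% were called higher in TG and 34.5% in NAc, which is also the background for the assembly genes below. Chrna7, which forms homomeric receptors, was 30.6 CPM in TG and 7.76 CPM in NAc (log2 1.98, adjusted p = 1.5e-13). Chrnb1 and Chrna1, subunits of the muscle receptor, were 3.46 and 1.68 CPM in TG and 1.97 and 0.856 CPM in NAc. Muscle markers reached 127 CPM in a vehicle TG library and 276 CPM in a morphine one against medians of 2.05 and 1.81 CPM, and their part in the Chrna1 and Chrnb1 levels was not tested. Chrm5, the muscarinic receptor of dopamine neurons, was 3.84 CPM in NAc and 0.167 CPM in TG, and Chrna2 was 2.03 and 0.475 CPM. Among 8 genes that assemble or modulate nicotinic receptors, 2 were higher in TG and 5 in NAc: Lynx1, a prototoxin that dampens nicotinic receptors, was 647 against 211 CPM, and Ric3, a chaperone, 145 against 92.8 CPM. Lypd1 (9.83 against 107 CPM) and Ly6h (23.1 against 111 CPM), also of the Ly6 family, were higher in NAc, as were Ly6e (30.9 against 54.2 CPM) and, slightly, the assembly factor Tmem35a (58.1 against 63.6 CPM).

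Levels of different genes were compared per kilobase of transcript, with lengths taken from GENCODE M21 transcripts matched to curated RefSeq records. In vehicle TG the order was Chrnb2 (17.6 ± 0.537 CPM per kilobase, SD, n = 5), Chrna6 (12.4 ± 0.377), Chrm4 (5.15 ± 0.307), Chrm2 (5.03 ± 0.337), Chrna3 (1.55 ± 0.104), Chrnb4 (1.15 ± 0.133), Chrm3 (1.08 ± 0.148), Chrna4 (0.384 ± 0.0609), Chrm1 (0.377 ± 0.0517) and Chat (0.0496 ± 0.0378). The ranges of Chrm4 and Chrm2, of Chrnb4 and Chrm3, and of Chrna4 and Chrm1 overlapped, and the other neighbours in the order stood apart. Chrna6 made up 86.5 ± 0.440% of the sum of the alpha subunits Chrna3, Chrna4 and Chrna6, and Chrnb2 made up 93.9 ± 0.538% of the sum of Chrnb2 and Chrnb4. Chrm4 and Chrm2 held 44.3 ± 0.939% and 43.2 ± 2.25% of the muscarinic sum over Chrm1 to Chrm4. By messenger RNA per kilobase, the ganglion thus carried mainly Chrna6, Chrnb2 and the Gi-coupled receptors among these genes. Nicotinic subunits outside these sums were not all lower. In vehicle TG, Chrna7 stood at 14.7 ± 0.810 CPM per kilobase, Chrnb3 at 3.99 ± 0.165 and Chrna5 at 0.284 ± 0.114.

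**Figure D2:**
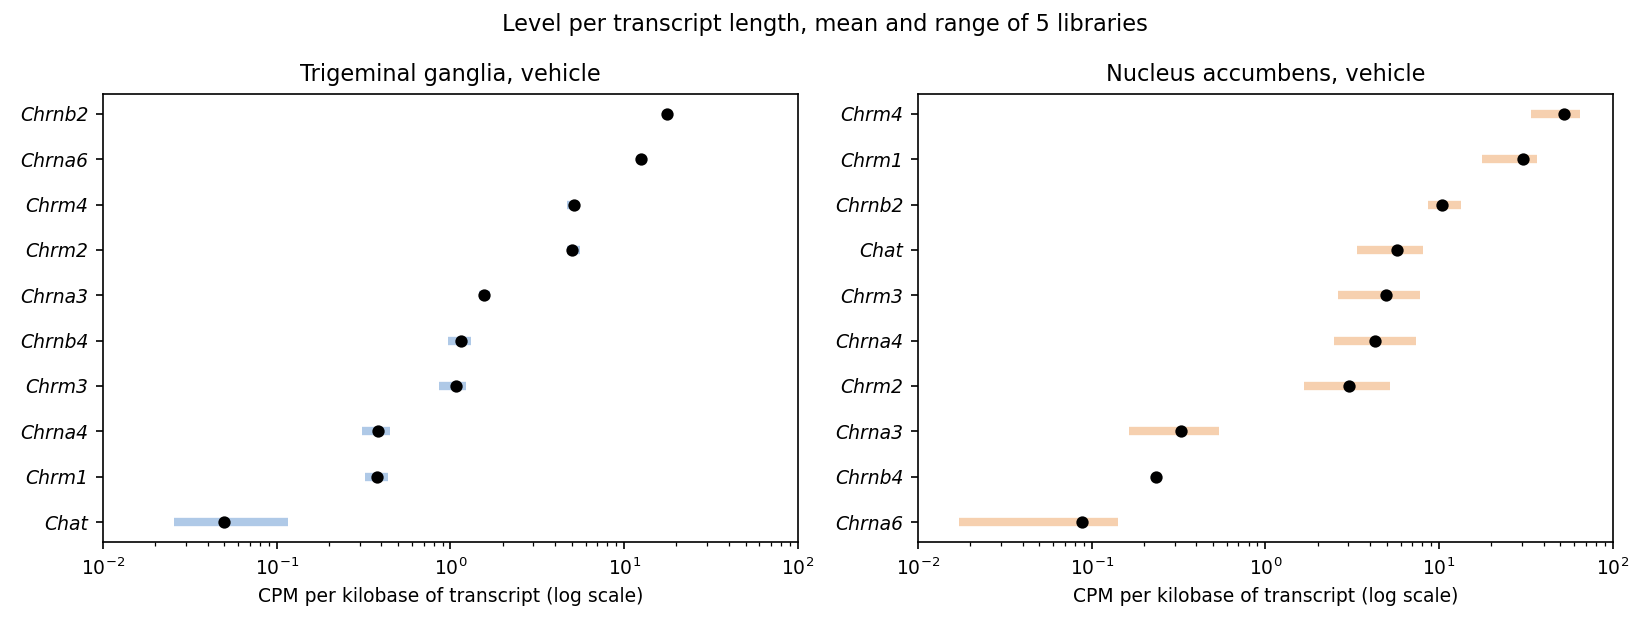
Level per kilobase of transcript (log axis) in vehicle trigeminal ganglia and nucleus accumbens; the dot is the mean and the bar the range of 5 libraries, with genes in the order of their mean. Chrna6 stands second at 12.4 in the ganglia and last at 0.0884 in the accumbens, while Chrm4 and Chrm1 lead the accumbens at 52.1 and 30.5. The place of Chrm4 rests on a length of 1440 bases. By CPM Chrm1 was above Chrm4 in vehicle accumbens, 143 against 75.0.

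In vehicle NAc the order was led by Chrm4 (52.1 ± 12.3 CPM per kilobase) and Chrm1 (30.5 ± 7.56), whose ranges overlapped, and then Chrnb2 (10.4 ± 1.78). Chat (5.73 ± 1.80), Chrm3 (4.93 ± 2.05), Chrna4 (4.30 ± 2.03) and Chrm2 (3.04 ± 1.36) followed with overlapping ranges between neighbours. Chrna3 (0.325 ± 0.135), Chrnb4 (0.235 ± 0.0107) and Chrna6 (0.0884 ± 0.0484) came last, and Chrna6 stood apart below Chrnb4. Chrna4 made up 89.9 ± 5.02% of the alpha sum there and Chrnb2 97.7 ± 0.395% of the beta sum. Chrna7, which is outside the alpha sum, stood at 3.73 ± 0.373 CPM per kilobase in vehicle NAc. The summed muscarinic level was 90.5 ± 16.5 in NAc and 11.6 ± 0.567 in TG, and the summed nicotinic level of the 5 subunits 15.4 ± 2.67 in NAc and 33.2 ± 0.931 in TG. Predicted transcripts were given the mean length of their gene's curated ones, which bears most on Chrm2 and Chrm3. The length given to the curated Chrm4 record was 1440 bases, and those given to Chrm1 were 6271 and 4159. The place of Chrm4 in both orders and its muscarinic share also rest on these lengths. By CPM, not divided by length, Chrm1 was above Chrm4 in vehicle NAc, 143 against 75.0 CPM. In vehicle TG, Chrm2 was above Chrm4, 28.5 against 7.41 CPM. Whether the matched lengths equal those of the RefSeq records was not tested.

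In vehicle mice, transcript usage differed clearly between tissues for Chrm4 only. For Chrm1 in vehicle NAc, the curated record given 4159 bases held 65.9 ± 2.11% of counts and that given 6271 bases the other 34.1%. In TG, on 2.06 CPM, the shares swung from 0.553% to 61.1% for the shorter record in vehicle libraries, so usage there could not be read. A predicted Chrm4 transcript held 19.0 ± 1.70% of counts in vehicle NAc (17.4% to 21.2%) and 7.14 ± 2.73% in vehicle TG (3.82% to 10.1%), without overlap. Shares of Chrm2 did not stand apart between tissues: its predicted transcript held 87.5% to 92.8% in vehicle NAc. The predicted Chrm3 transcript held 74.0 ± 3.90% in vehicle NAc and 74.4 ± 5.67% in vehicle TG. A predicted Chrnb4 transcript held 17.4 ± 7.78% of counts in vehicle TG (11.7% to 30.2%) and 3.59 ± 5.09% in vehicle NAc (0% to 12.3%), with overlap. In morphine mice its shares did not overlap, 12.6% to 21.3% in TG and 0% in NAc, where Chrnb4 was 0.776 CPM. For Chrna4, the curated transcript held from 0% to 100% of counts across vehicle TG libraries and 71.9 ± 7.81% in vehicle NAc. No single transcript of these genes passed between morphine and vehicle in either tissue, where 0.0587% of transcripts in TG and 0% in NAc passed.

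The accumbens libraries differed among themselves more than the ganglion libraries did in 8 of the 10 genes in vehicle mice, and less in Chat (coefficient of variation 31.4% in NAc and 76.3% in TG, where it rests on few counts) and Chrnb4 (4.66% and 11.5%). The coefficient of variation over vehicle libraries was 44.6% for Chrm2, 47.2% for Chrna4 and 41.5% for Chrm3 in NAc, and 6.71%, 15.9% and 13.7% in TG. Chrm3 and Chrna4 were highest in the same libraries, replicate 3 of vehicle (33.8 and 33.7 CPM) and replicate 3 of morphine (40.1 and 31.9 CPM). The cortex and septum markers were also highest there, 872 and 846 CPM. In vehicle replicate 5, lowest for Chrm3 and Chrna4 in its group, they summed to 58.1 CPM. They did not follow Chrm3 in every library. Vehicle replicate 2 had Chrm3 at 25.2 CPM and a marker sum of 147 CPM, and vehicle replicate 1 had 14.8 and 262 CPM. Replicate 2 of vehicle combined the lowest Chrm1 and Chrm4 with the highest Chrm2, Chrna3 and Chrnb2 of all NAc libraries. It also had the lowest medium spiny sum, 1484 CPM, against 2313 to 4462 CPM in the other vehicle libraries. The part of neighbouring tissue in these differences was not tested.

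**Figure D3:**
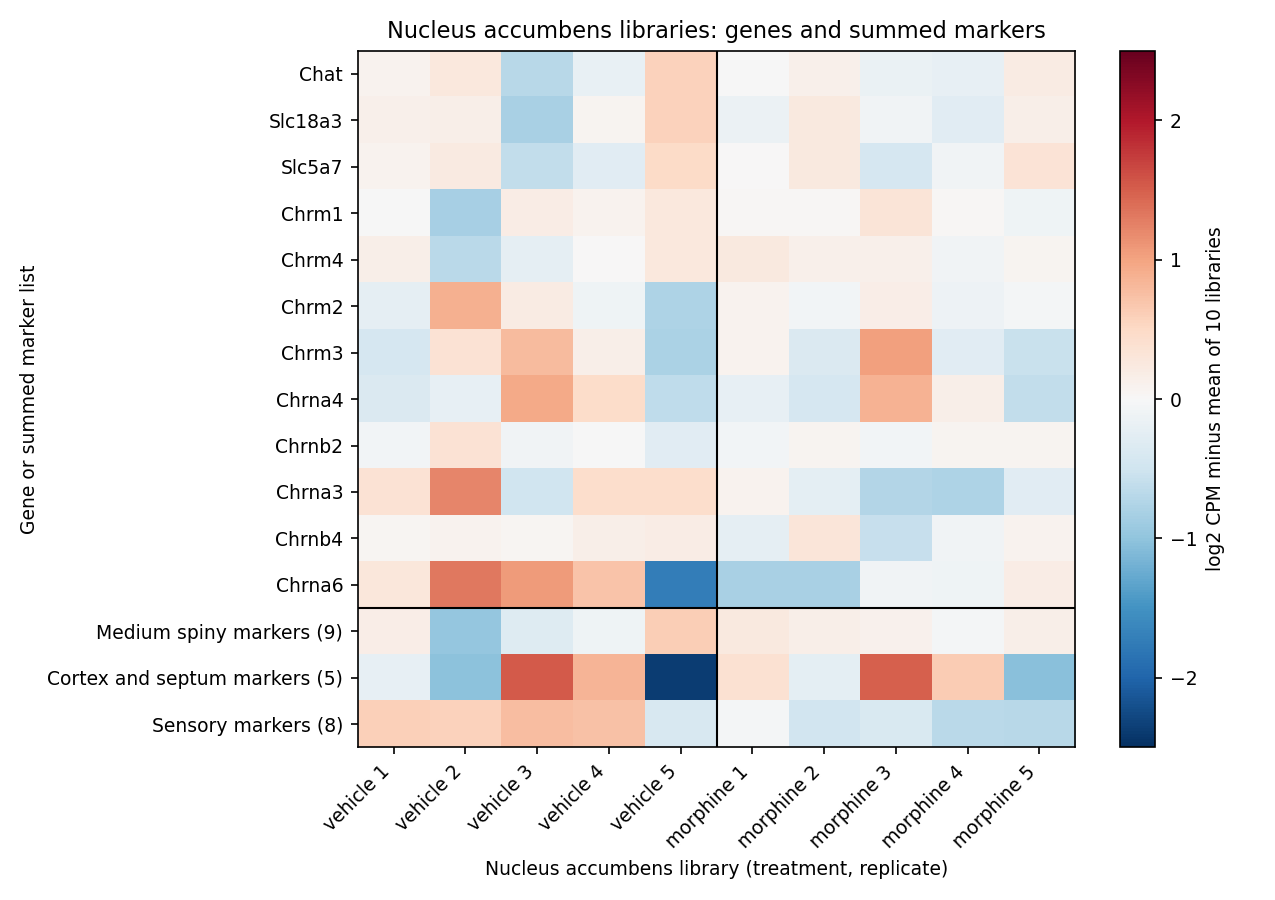
Each cell is the log2 CPM of a gene, or of a summed marker list, in 1 nucleus accumbens library minus the mean of all 10 (red higher, blue lower); the black lines divide vehicle from morphine libraries and genes from marker sums, and the sensory list leaves out Tubb3 and P2rx3. Chrm3 and Chrna4 are reddest in replicate 3 of vehicle and of morphine, as are the cortex and septum markers at 872 and 846 CPM, and Chrm1 and Chrm4 are bluest in vehicle replicate 2 with the medium spiny markers at 1484 CPM.

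Chat followed another course through the NAc libraries. It was lowest in vehicle replicate 3, at 9.60 CPM, and highest in vehicle replicate 5, at 23.2 CPM, the reverse of Chrna4 in that group. Over the 10 NAc libraries, each taken as its log2 deviation from its treatment mean, 4 of the 5 genes most like Chat were Xxylt1 (Pearson r 0.98, Spearman rho 0.96), Lrrc61 (0.98 and 0.95), Bbx (0.96 and 0.92) and Elmo1 (0.96 and 0.96), among 15044 genes of at least 1 CPM. Slc18a3 (r 0.95, rho 0.90) ranked 10 and Slc5a7 (r 0.94, rho 0.94) ranked 14. Tacr1, the substance P receptor of striatal cholinergic interneurons, ranked 27 (r 0.92, rho 0.79), whereas Chrna4 had r -0.87 and rho -0.83. Not all listed cholinergic genes lay this close to Chat. Slc17a8 ranked 83 (r 0.86), Lhx8 655 (r 0.70), Isl1 781 (r 0.67), Ache 2153 (r 0.48) and Zic4 7057 (r 0.04). For Chrm2, r was -0.29 and rho -0.16. These libraries share dissections and depth, and the values are descriptions over 10 libraries.

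The markers of cholinergic neuron identity were a mixed list between tissues: of 8 genes tested in vehicle mice, 5 were higher in NAc and 2 in TG. Of all features, 34.5% were called higher in NAc and 32.9% in TG. Lhx8, a transcription factor of forebrain cholinergic neurons, was 8.47 CPM in vehicle NAc and 0.0297 CPM in vehicle TG, and Tacr1 was 30.8 and 0.550 CPM. Isl1, a transcription factor that sensory neurons also use, was higher in TG, at 105 CPM against 15.5 CPM. Slc17a8, the vesicular glutamate transporter that striatal cholinergic interneurons carry, had a log2 difference of -0.96, TG minus NAc, and Zic4 was 4.89 CPM in NAc and 1.72 CPM in TG.

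In TG, morphine and vehicle did not differ past the threshold for any of the 9 genes tested, where 0.18% of all features passed (53 of 29394). Chat had too few counts to be tested. The genes closest to a difference were Chrna6 and Chrna4, higher in every morphine library than the vehicle median, and Chrm3 and Chrna3, lower in every one. At an unadjusted p under 0.05 stood these 4 of 9 genes, against 10.1% of all features. By DESeq2, 1 of the 9 passed, Chrna6, where that tool called 2.41% of all features. The CPM of the groups overlapped for all 9, where 2.58% of all features had groups apart. The median log2 fold change of the 9 was 0.05, beside -0.0022 over all features.

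Chrna6 in morphine TG read 39.5, 37.5, 38.4, 40.4 and 40.8 CPM, against 35.0 to 37.7 CPM in vehicle TG. Of the morphine libraries, 4 lay above every vehicle library, and replicate 2 lay just inside the vehicle range. The difference was small, 1.08-fold (log2 0.12, SE 0.03, edgeR adjusted p = 0.197), and DESeq2 gave log2 0.12 with an adjusted p of 0.0135. Its neighbour Chrnb3 was 17.9 CPM in vehicle and 18.2 CPM in morphine TG (log2 0.01, adjusted p = 0.93). Chrnb2, the likely partner, was 112 to 123 CPM after morphine and 109 to 115 CPM after vehicle (log2 0.05, SE 0.03, adjusted p = 0.566). The sensory markers summed to 4963 to 5665 CPM in morphine and 5297 to 5824 CPM in vehicle TG, and 10 of 10 had a negative fold change, none past the threshold.

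Chrm3 in morphine TG read 3.79, 3.86, 4.09, 3.34 and 3.43 CPM, against 3.75 to 5.35 CPM after vehicle, and the groups overlapped through the vehicle library at 3.75 CPM. Its log2 fold change was -0.34 (SE 0.11, edgeR adjusted p = 0.332). Chrna4 read 2.19, 2.00, 2.06, 2.53 and 2.12 CPM after morphine and 1.41 to 2.04 CPM after vehicle (log2 0.31, SE 0.13, adjusted p = 0.457). Chrna3 read 6.01, 5.65, 6.04, 6.30 and 6.54 CPM after morphine and 6.32 to 7.40 CPM after vehicle (log2 -0.15, SE 0.07, adjusted p = 0.491). So these 3 leaned one way in most libraries, by amounts that the test across all features did not separate from the spread. Chrnb4 (log2 -0.13, adjusted p = 0.71) was below the vehicle median in all 5 morphine libraries, 1 of them below every vehicle library. Of the morphine libraries, 3 lay above every vehicle library for Chrm4 (0.08, adjusted p = 0.78), 2 for Chrm1 (0.11, adjusted p = 0.801) and 0 for Chrm2 (0.04, adjusted p = 0.879).

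**Figure D4:**
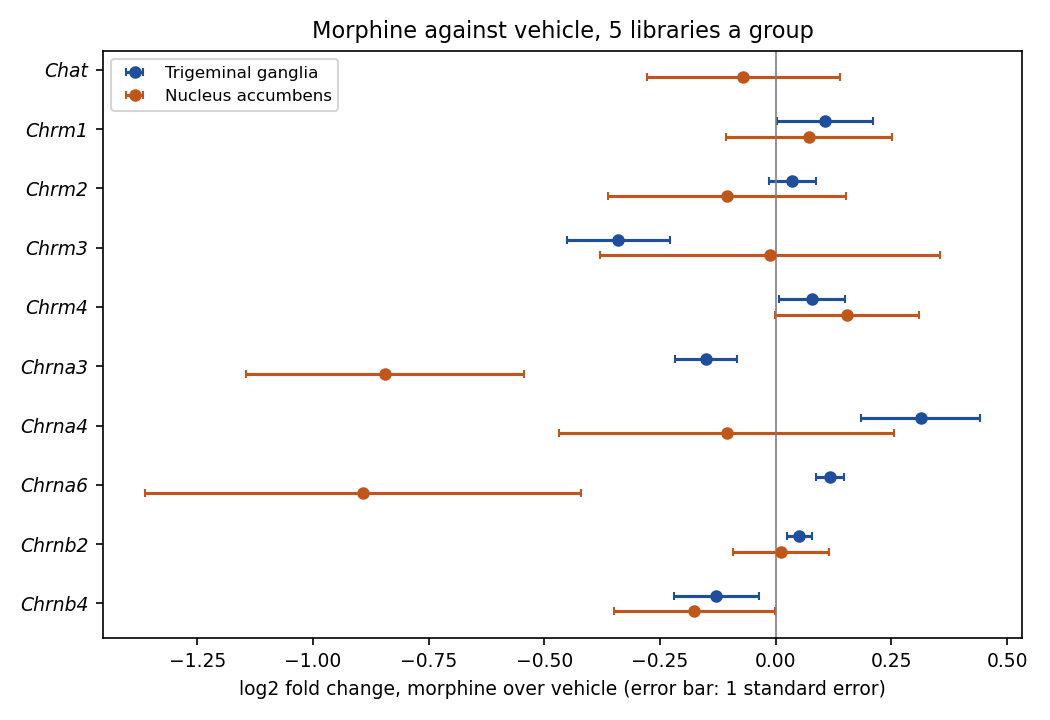
Log2 fold change of morphine over vehicle for each gene in trigeminal ganglia (blue) and nucleus accumbens (orange), from edgeR fits on 10 libraries a tissue; bars are 1 standard error, and Chat has no ganglion value because its counts were too low. Ganglion values lie between -0.34 and 0.31 with short bars, and the accumbens values of Chrna3 and Chrna6 lie at -0.84 and -0.89 with long ones.

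Among the genes most like Chrna6 across TG libraries were Adcy2, an adenylyl cyclase (r 0.98, rho 0.99), H1f2 (0.95 and 0.93), Zfp110 (0.94 and 0.94), Vwc2 (0.94 and 0.92) and Tex261 (0.94 and 0.94), among 15064 genes. For Chrnb4 they were Grhl3 (0.99 and 0.98), Dnajc16 (0.96 and 0.98), Fstl1 (0.95 and 0.93), Cct7 (0.93 and 0.95) and Zfp954 (0.92 and 0.90). These values are deviations from the treatment means over 10 libraries that share tissue and protocol. Chrnb3 had r 0.51 and rho 0.43 with Chrna6, at rank 2739, and Chrnb2 had r 0.67 and rho 0.43, at rank 1115. The neighbours Chrna3 and Chrnb4 had r 0.26 and rho 0.08 with each other.

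In NAc none of the 10 genes passed between morphine and vehicle, where 0% of all 29910 features passed in edgeR. At an unadjusted p under 0.05 stood 1 gene, Chrna3, against 5.71% of all features, and DESeq2 and limma voom also called 0 of the 10, where they called 0.819% and 0.0134% of all features. The median log2 fold change of the 10 was -0.09, beside -0.0071 over all features. Chat read 15.5, 17.1, 14.0, 13.4 and 18.1 CPM after morphine, inside the vehicle range of 9.60 to 23.2 CPM (log2 -0.07, SE 0.21, adjusted p = 0.998). Chrm1 read 133 to 180 CPM and Chrm4 73.3 to 92.7 CPM after morphine, and both had their lowest value in vehicle replicate 2. Limits were wide for Chrm3 and Chrna4, which spread widely in both groups: the SE was 0.37 and 0.36, and the log2 fold changes were -0.01 and -0.11.

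The largest estimates in NAc belonged to Chrna6 and Chrna3. Chrna3 read 1.08, 0.849, 0.607, 0.596 and 0.825 CPM after morphine and 0.714 to 2.35 CPM after vehicle (log2 -0.84, SE 0.30, edgeR adjusted p = 0.772). Chrna6 read 0.0949, 0.0943, 0.156, 0.153 and 0.188 CPM after morphine, on 44 counts in all, and 0.050 to 0.414 CPM after vehicle, on 76 counts (log2 -0.89, SE 0.47, adjusted p = 0.932). The groups overlapped for both genes, as for the other 8, where 1.74% of all features had groups apart. Chrnb4, the neighbour of Chrna3, was 0.876 CPM after vehicle and 0.776 CPM after morphine (log2 -0.18, SE 0.17, adjusted p = 0.998).

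Sensory neuron markers also had lower values in NAc after morphine. All 9 of those tested had a negative fold change after morphine, with a median of -0.86, and the whole list of 10 summed to 209 to 235 CPM after morphine and 191 to 267 CPM after vehicle. Tubb3, which all neurons use, held 215 CPM of the vehicle sum. Avil was 3.26 CPM in vehicle and 1.70 CPM in morphine NAc, and Prph 3.11 and 1.39 CPM. Set against their ganglion levels, Avil stood in NAc at 0.365% in vehicle and 0.195% in morphine mice, Scn10a at 0.343% and 0.199%, and Chrna6 at 0.710% and 0.349%. Chrna3 stood at 21% and 12.9% and Chrnb4 at 20.5% and 19.8%, near Tubb3 at 14.2% and 14.0% and above the other 9 markers. No sensory marker was at 0 in NAc. Whether ganglion RNA in the NAc libraries had a part in the Chrna6 values was not tested.

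**Figure D5:**
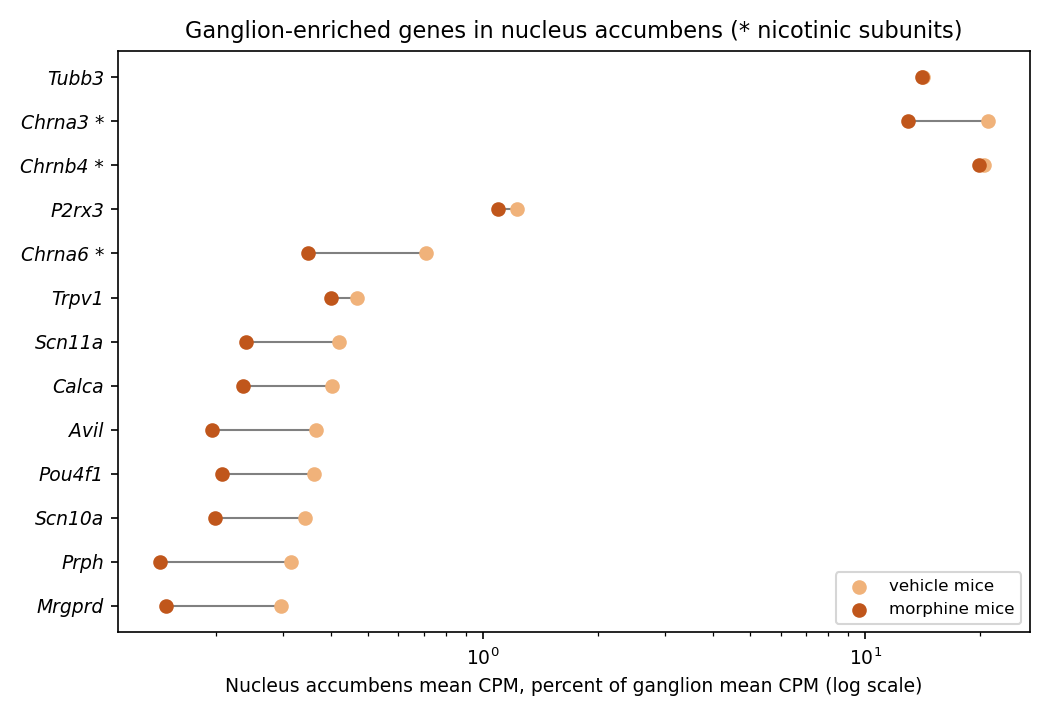
Mean CPM in nucleus accumbens as a percent of mean CPM in trigeminal ganglia (log axis) for the nicotinic subunits Chrna3, Chrnb4 and Chrna6 (starred) and the 10 sensory neuron markers, in vehicle and morphine mice, 5 libraries a group. Chrna6 at 0.710% and 0.349% lies nearest to the sensory markers, while Chrna3 at 21% and 12.9% and Chrnb4 at 20.5% and 19.8% lie near Tubb3.

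The morphine effect differed between the tissues for none of the 10 genes past the threshold, where 0.0394% of all features passed (13 of 32998). The largest differences of effect, TG minus NAc, were those of Chrna6 (log2 1.00, SE 0.37, edgeR adjusted p = 0.596) and Chrna3 (log2 0.69, SE 0.31, adjusted p = 0.696), which were also the 2 genes at an unadjusted p under 0.05, against 6.81% of all features. DESeq2 called 1 of the 10, Chrna6 (log2 1.01, adjusted p = 0.0438), where it called 0.691% of all features. Leaving out vehicle NAc replicate 5, which had the lowest Chrna6 value of that group at 0.050 CPM, also brought Chrna6 past the threshold (log2 1.26, edgeR adjusted p = 0.0299), where 0.0984% of all features passed. Of the 10 sensory markers, 10 had a positive difference of effect, with a median of 0.79 beside 0.01 over all features. Their part in the Chrna6 value was not tested.

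The wider cholinergic lists gave no called gene under morphine either. In TG, 0 of 9 genes of synthesis, transport and breakdown passed, 0 of 10 other receptor genes, 0 of 8 assembly genes and 0 of 6 identity genes. In NAc it was 0 of 11, 9, 8 and 8. Of all features, 0.18% passed in TG and 0% in NAc. All 10 of the other receptor genes tested in TG had a positive fold change, against 49.2% of all features. Their median was 0.12, beside -0.0022 over all features. But the values were small or rested on low levels: Chrna7 was 30.6 CPM in vehicle and 31.1 CPM in morphine TG (log2 0.02, adjusted p = 0.96). In NAc, Slc5a7 was 44.8 CPM in vehicle and 45.3 CPM in morphine mice, and Slc18a3 5.29 and 4.95 CPM.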

How the data were processed

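Expected counts, estimated for 107185 RefSeq transcripts and not normalised, are what the authors deposited for the 20 libraries; 56.0% of values were not whole (tolerance 1e-06). The submitters' processing notes name kallisto 0.43 and mouse build GRCm38; its settings were not given in the sources used here. Per the labels' protocols, the messenger RNA libraries kept strand and ran in earlier and later lanes; which ran where is not stated, so no batch could be fitted.

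Summing transcripts per gene by RefSeq accession (GRCm38.p6, plus 151 matches through GENCODE M21) placed 80.8% of transcripts and 90.0% of counts. Sums were rounded. Chat shares 2414 bases with Slc18a3, Chrna3 1304 with Chrna5, and Chrm3 1584 with Gm26861, so their split is less certain.

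The treatment tests used the 10 libraries of 1 tissue, and the tissue contrasts and the interaction all 20, in edgeR 4.0.16 (filterByExpr, TMM, robust quasi-likelihood fit). Tests were 2-sided with Benjamini-Hochberg adjustment over all features and a threshold of 0.05. The SE is the log2 fold change over the square root of F. The fits were tested on simulated data. Replicates are separate mice; between them the chi-square per gene was 12.3 to 137, where counting error alone gives values near 1.

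The labels' mouse codes pair the tissues; deviations of the same mouse had a correlation of -0.0518 to 0.0314.

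The 10 genes and all lists were chosen with earlier results of these data known. Named are the 10 genes, up to 6 genes per cholinergic list by level, the 5 genes most like Chat, Chrna6 and Chrnb4 (1 gene for Chat is not reported here), and transcripts with at least 10% of a gene's counts. Other genes named were chosen after their values were seen, as was the sensory list without Tubb3 and P2rx3. Alternatives were DESeq2 1.42.0, limma 3.58.1 voom, other scalings and filters, curated or single transcripts, blocks, a threshold of 0.1, and leaving out each library.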

Additional observations from a re-analysis of the deposited data

Results flagged for a closer look

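Of the 40 groups of 5 libraries looked at, 2 held a library far from the others; chance flags about 1 in 20 groups. Chat in vehicle TG replicate 1 was 0.329 CPM, and the next library was 0.138 CPM, both from few counts. Chrm3 in morphine NAc replicate 3 was 40.1 CPM, and the next was 21 CPM; the cortex and septum markers of that library summed to 846 CPM, the most in its group. Without that library the log2 morphine effect on Chrm3 in NAc was -0.38. The part of neighbouring tissue was not tested.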

How the results depend on the processing

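The counts of called genes among the 10 changed in few settings. DESeq2 called 1 gene in TG and 1 in the difference of morphine effects, Chrna6 in both, where edgeR called 0. Leaving out 1 library at a time gave 0 to 1 called gene for that difference, the 1 being Chrna6 without vehicle NAc replicate 5. Counts for the other comparisons kept within 1.5 times under every alternative run, with 9 of 10 in the tissue contrast of vehicle mice when curated transcripts alone were summed (Chrm2 lost). The mouse as a block left 10 called genes in each tissue contrast and 0 in the difference of effects; the replicate number as a block left 0 in each treatment comparison, and no blocked fit changed a call for these genes. The labels do not pair morphine and vehicle libraries of the same number. Deviations of such libraries had correlations of -0.00995 to 0.0356 in TG and 0.0183 to 0.235 in NAc, over 0.1 for 2 of the 5 NAc pairs, and 0 of 10 TG and 4 of 10 NAc libraries correlated best with their own number. Over all features, called counts moved from 53 to 2 in TG with the replicate block and to 709 with DESeq2, and in NAc from 0 to 245 with DESeq2.

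Only small, uncalled treatment effects turned sign. With limma voom the NAc effect was 0.12 for Chat, -0.014 for Chrm1 and 0.055 for Chrm2, and the difference of effects was -0.0099 for Chrm2, -0.014 for Chrnb2 and -0.012 for Chrnb4. With the mouse block the difference for Chrm1 was -0.0051. Leaving out 1 library at a time, NAc effects ran from -0.21 to 0.094 for Chat, from -0.075 to 0.15 for Chrm1, from -0.26 to 0.18 for Chrm2, from -0.38 to 0.22 for Chrm3, from -0.40 to 0.18 for Chrna4 and from -0.046 to 0.12 for Chrnb2. Differences of effects ran from -0.038 to 0.19 for Chrm1, from -0.15 to 0.30 for Chrm2, from -0.55 to 0.041 for Chrm3, from -0.17 to 0.046 for Chrm4, from -0.066 to 0.10 for Chrnb2 and from -0.053 to 0.16 for Chrnb4. Signs changed most often without vehicle NAc replicate 2. The cause was not tested.

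Depth limits Chat in TG and Chrna6 in NAc, which rest on 45 and 76 counts in vehicle mice. The spread among NAc libraries limits Chrm2, Chrm3, Chrna3 and Chrna4 there.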
